A study of Spinacia oleracea with 12 samples.

Results

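The 4 genes followed here are described as encoding enzymes, or proteins like enzymes, that handle glyoxylate. Their descriptions are those of the paper. They are Spo12360, a putative mitochondrial alanine-glyoxylate aminotransferase, and Spo04579, Spo00830 and Spo26769, all glyoxylate/succinic semialdehyde reductase-like. These 4 genes were taken by ID from the 25495 genes of the table. The paper had singled them out on the same libraries, so their direction in leaf is not independent evidence.

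Spinach plants (*Spinacia oleracea*) aged 6 weeks gave leaf laminae and roots for RNA sequencing. They belonged to PI175311, a germplasm accession with high oxalate, and to Bloomsdale, an heirloom variety with low oxalate. Each of the 4 groups, PI175311 leaf, Bloomsdale leaf, PI175311 root and Bloomsdale root, had 3 libraries, numbered here as in the labels. All plants grew in a growth chamber in Turface medium. By the labels, each of the 12 libraries had nitrogen at 200 ppm, whereas the paper names a nitrogen-free nutrient solution. The labels speak of 3 independent plants and do not say whether a leaf and a root library of 1 number came from the same plant. The files pair no gene ID with a name, so tissue labels could not be checked against marker genes.

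Glyoxylate lies between photorespiration, the glyoxylate cycle and oxalate. In leaves it arises in peroxisomes from glycolate, and it can also be released from isocitrate by isocitrate lyase. It is toxic to photosynthesis when it builds up, and it can be oxidized to oxalate. An alanine-glyoxylate aminotransferase moves the amino group of alanine to glyoxylate, which yields glycine and pyruvate. Glyoxylate reductases, known in *Arabidopsis* as GLYR enzymes of the cytosol and of organelles, use NADPH to turn glyoxylate back into glycolate, and they also act on succinic semialdehyde.

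The values were FPKM, fragments scaled to the length of the gene and to the total of the library. They held enough digits to solve the whole number of fragments behind each of them, taking the smallest solution. The library totals solved in this way ranged from 18451262 to 25245734 fragments. The solution also returned the gene length that the values imply. This length was 2087 bases for Spo12360, 840 for Spo26769, 413 for Spo00830 and 222 for Spo04579, against a median of 1449 bases over 21552 genes. Of these genes, 1.44% were shorter than Spo04579, 9.33% were shorter than Spo00830 and 25.3% were shorter than Spo26769. In Spo04579 a single fragment was worth 0.178 to 0.244 FPKM, and in Spo12360 it was worth 0.0190 to 0.0260 FPKM. A given FPKM therefore rested on far fewer fragments in the short genes. The paper describes Spo04579 and Spo00830 as truncated. Reads could be divided between them and similar copies, and how reads with several matches were counted is not given in the sources used here.

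The aminotransferase gene had fragments in every library and was much higher in root than in leaf. Spo12360 stood at 29.5, 23.8 and 44.1 FPKM in PI175311 roots 1, 2 and 3. In Bloomsdale roots it stood at 26.1, 34.6 and 36.2 FPKM. The root values of the genotypes overlapped, and PI175311 root 3 was the highest of all 12 libraries. In PI175311 leaves the level was 2.31, 1.92 and 1.84 FPKM, and in Bloomsdale leaves it was 0.221, 0.774 and 0.145 FPKM. All 3 PI175311 leaves lay above all 3 Bloomsdale leaves, of which leaf 2 was the highest. The Bloomsdale leaf values came from 11, 33 and 7 fragments, and their 95% Poisson intervals reached up to 0.396, 1.09 and 0.298 FPKM. These intervals cover counting error only. The lowest PI175311 leaf had 85 fragments and a lower bound of 1.53 FPKM.

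**Figure D1:**
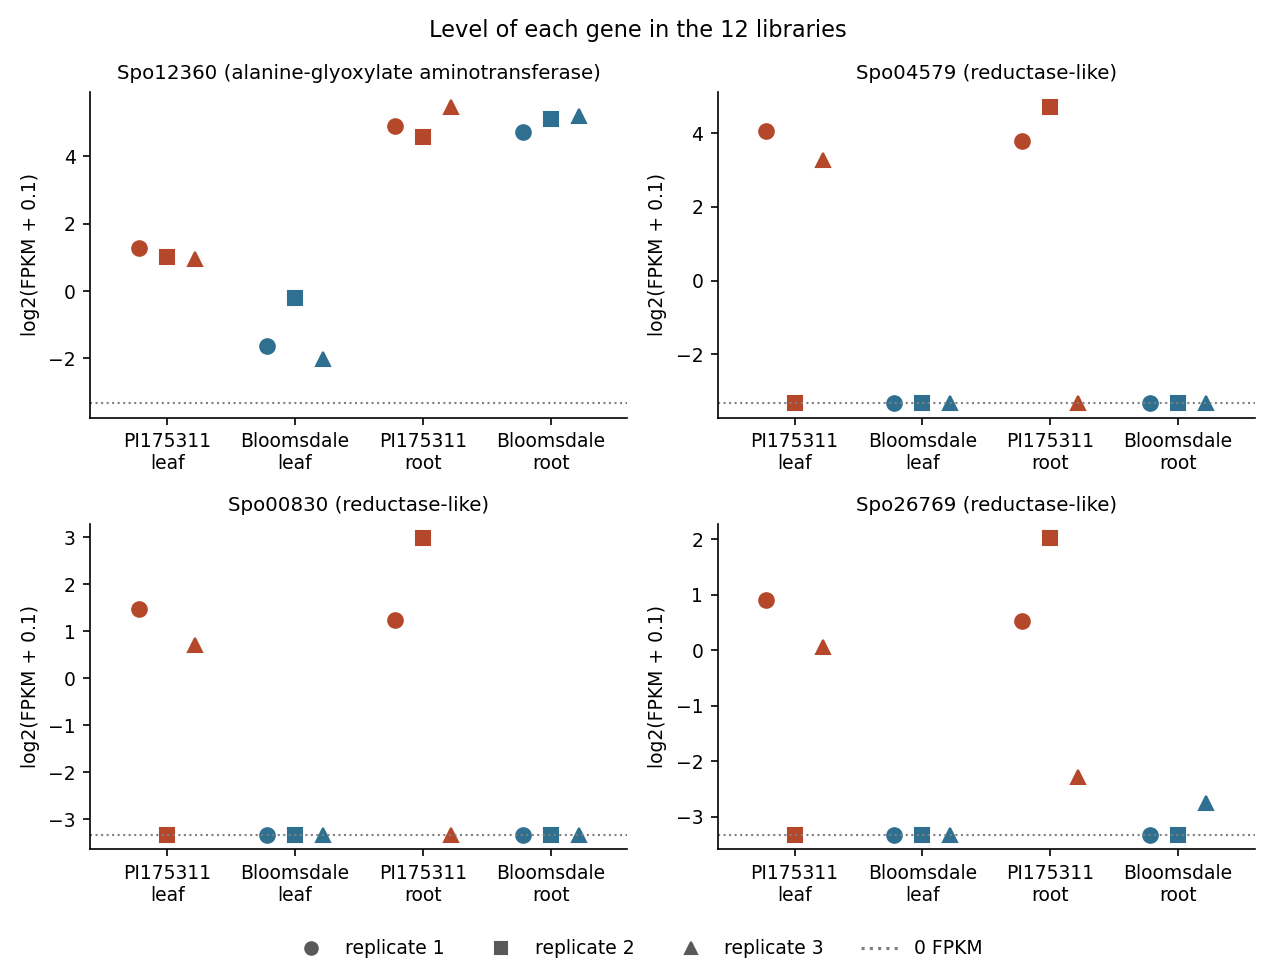
Level of the 4 genes in the 12 libraries, as log2(FPKM + 0.1) on the vertical axis, with 1 panel per gene, 1 marker shape per replicate number and a dotted line at 0 FPKM. Spo12360 is high in all 6 roots, whereas the 3 reductase-like genes are present in PI175311 leaves 1 and 3 and roots 1 and 2 and at or near 0 in the other 8 libraries.

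In order of group means, PI175311 root had 32.5 ± 10.4 FPKM (SD, n = 3), Bloomsdale root 32.3 ± 5.41, PI175311 leaf 2.02 ± 0.254 and Bloomsdale leaf 0.380 ± 0.343. The neighbours at the top of this order, the roots of the genotypes, did not differ beyond their spread. By rank within a library, Spo12360 was between place 2305 and place 5233 in the roots. It was between place 14226 and place 14572 in PI175311 leaves, among 20338 to 20489 genes above 0. In Bloomsdale leaves it was between place 17178 and place 19305. The ratio of root to leaf means was 16.0 in PI175311 and 85.1 in Bloomsdale.

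To ask whether the aminotransferase gene preferred a tissue, leaf was compared with root in 1 limma fit over all 12 libraries, on log2(FPKM + 0.1). Genes entered where 3 or more of the libraries had at least 1 FPKM, p-values were adjusted by the Benjamini-Hochberg method over all 19549 tested genes, and the threshold was 0.05. Spo12360 was lower in leaf by a log2 difference of -3.90 in PI175311 (95% interval -4.81 to -2.99, limma's adjusted p = 1.56e-05). In Bloomsdale the log2 difference was -6.29 (95% interval -7.20 to -5.38, limma's adjusted p = 3.36e-07). A lower leaf level was common in the table as a whole, as 47.5% of tested genes were called lower in leaf in PI175311 and 50.0% in Bloomsdale. The median log2 difference of all tested genes was -0.64 in PI175311 and -0.70 in Bloomsdale. Both called differences of Spo12360 were far larger than these medians. With median-of-ratios scaling of the libraries the medians moved to -0.10 and -0.06, and Spo12360 stood at -3.35 and -5.72. The calls behind these shares, 3108 higher and 9295 lower in PI175311 and 2853 and 9783 in Bloomsdale, became 4561 and 4966, and 4440 and 4986, with that scaling.

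Between genotypes, the aminotransferase gene was higher in PI175311 leaves and not distinguishable in roots. Genotypes were compared within a tissue by the same kind of fit on the 6 libraries of that tissue. In leaf, the log2 difference of Spo12360, PI175311 minus Bloomsdale, was 2.37 (standard error 0.56, 95% interval 1.09 to 3.65, limma's Benjamini-Hochberg adjusted p = 0.0337). The background was 4.04% of 16764 tested genes called higher in PI175311 leaves, and the median log2 difference of all tested genes was -0.12. Spo12360 entered this test only through the 3 PI175311 leaves, as every Bloomsdale leaf was under 1 FPKM. With no filter, limma's adjusted p for Spo12360 was 0.0336, and 815 of 22473 genes were called higher. On the FPKM values of this gene alone, an exact permutation test gave p = 0.10, the smallest that 3 libraries against 3 allow (2-sided). Adjusted over the 8 such tests of the 4 genes in leaf and root, it was 0.40. Groups in which PI175311 lay wholly above Bloomsdale made up 9.88% of tested genes in leaf. That share is over genes that passed the filter, which Spo12360 did through PI175311 alone.

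The leaf call was close to the threshold. The adjusted p from limma was 0.106 without PI175311 leaf 1, 0.0909 without PI175311 leaf 3, 0.107 without Bloomsdale leaf 1 and 0.0801 without Bloomsdale leaf 3, and 0.0524 with 0.01 FPKM added in place of 0.1. The log2 difference of Spo12360 stayed between 2.00 and 2.91 with a library left out, and it was 1.16 with 1 FPKM added, where low values are compressed. In root the log2 difference of Spo12360 was -0.03 (95% interval -0.66 to 0.61, limma's adjusted p = 0.957).

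**Figure D2:**
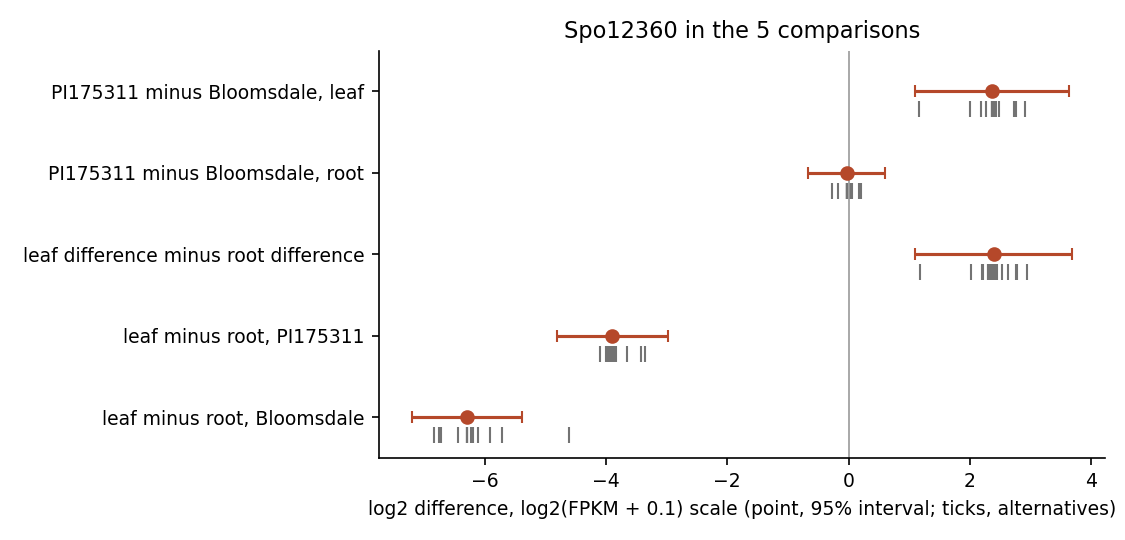
Differences of Spo12360 on the log2(FPKM + 0.1) scale in the 5 comparisons, with points for the estimates, bars for 95% intervals and grey ticks for the alternative settings. The leaf-minus-root differences, -3.90 and -6.29, and the genotype difference in leaf, 2.37, lie away from 0, and the genotype difference in root, -0.03, lies on it.

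Whether the genotype difference was itself larger in leaf than in root was tested as the interaction of genotype and tissue. For Spo12360 the leaf difference exceeded the root difference by 2.39 on the log2 scale (95% interval 1.10 to 3.68), which did not pass (limma's adjusted p = 0.0631). Over all genes, 2.26% passed this test. The interaction of Spo12360 did pass without Bloomsdale leaf 2, with a value of 2.94 (limma's adjusted p = 0.00635). A difference between the tissues was thus not established at the threshold used.

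The 3 reductase-like genes behaved differently from the aminotransferase gene. They were seen in PI175311 and barely or not at all in Bloomsdale, and within PI175311 they were present in some libraries and missing in others. Spo04579 stood at 16.4, 0 and 9.64 FPKM in PI175311 leaves 1, 2 and 3. In PI175311 roots it stood at 13.6, 26.1 and 0 FPKM. It had no fragment in any of the 6 Bloomsdale libraries. Leaf 2 and root 3 of PI175311 were thus as empty of Spo04579 as Bloomsdale, while the other 4 PI175311 libraries held 83, 54, 75 and 107 fragments.

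Spo00830 followed the same 4 libraries at a lower level. It stood at 2.66, 0 and 1.53 FPKM in PI175311 leaves and at 2.25, 7.74 and 0 FPKM in PI175311 roots, and it was at 0 in all 6 Bloomsdale libraries. These values came from 25, 16, 23 and 59 fragments. As for Spo04579, root 2 was the highest library, and leaf 2 and root 3 had no fragment.

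Spo26769, the gene of the 3 with the longest model, was the lowest by FPKM. It stood at 1.78, 0 and 0.943 FPKM in PI175311 leaves, from 34, 0 and 20 fragments. In PI175311 roots it stood at 1.34, 3.94 and 0.106 FPKM, from 28, 61 and 2 fragments. The Bloomsdale leaves were at 0, and so were Bloomsdale roots 1 and 2, while Bloomsdale root 3 held 1 fragment (0.0484 FPKM). The values of PI175311 root 3 and Bloomsdale root 3 could not be told apart by counting, with exact Poisson intervals of 0.242 to 7.22 and of 0.0253 to 5.57 fragments.

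**Figure D3:**
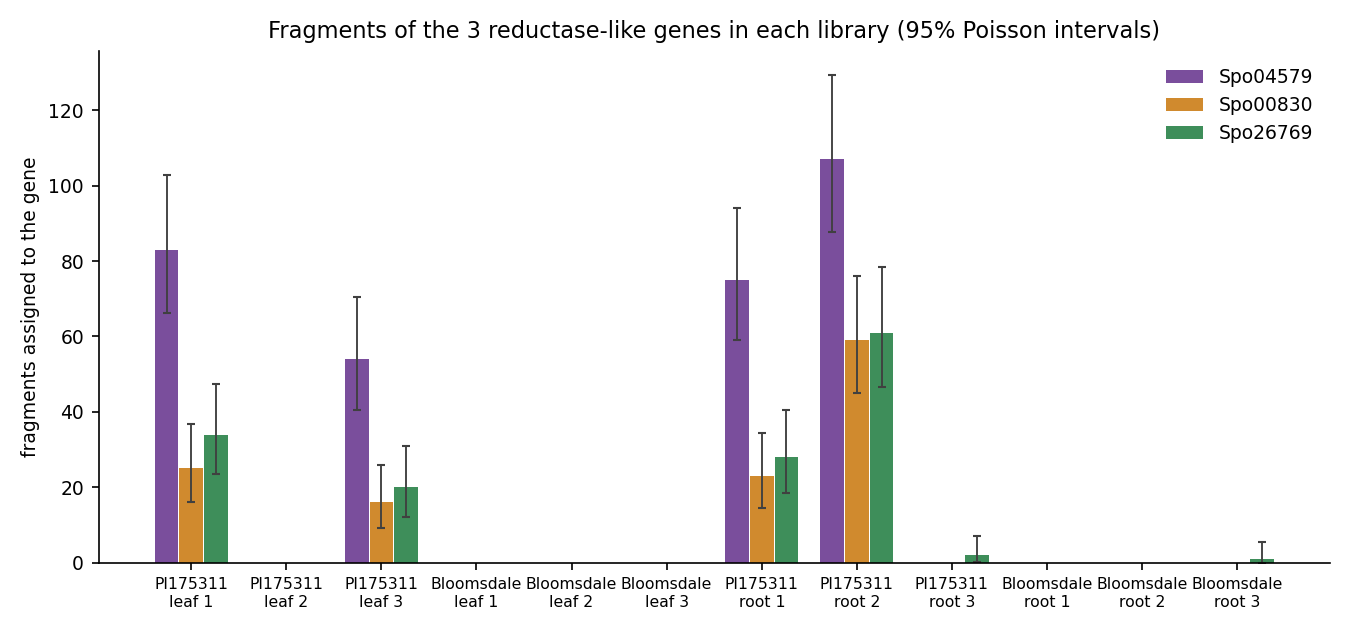
Fragments assigned to Spo04579, Spo00830 and Spo26769 in each of the 12 libraries, with bars from 0 and 95% Poisson intervals, which cover counting error only. The bars stand in PI175311 leaves 1 and 3 and roots 1 and 2, where the 3 genes together hold 142, 90, 126 and 227 fragments, and in no other library do they hold more than 2.

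At 1 FPKM or more, all 3 reductase-like genes were on together in PI175311 leaf 1, root 1 and root 2. At 0.5 FPKM the count was 4 libraries, with leaf 3 in addition, where Spo26769 stood at 0.943 FPKM. No library had all 3 at 5 FPKM or more. The replicate numbers did not follow the pattern across tissues. The genes were present in leaf 1 and root 1, missing in leaf 2 and present in root 2, and present in leaf 3 and nearly missing in root 3. Spo12360 did not share the pattern. It stood at 1.92 FPKM in PI175311 leaf 2, between the other PI175311 leaves, and it was highest in PI175311 root 3. Library totals did not set leaf 2 and root 3 apart, with 21248523 and 22392883 fragments against 18451262 to 25245734 over all libraries.

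Summed over a group, the difference between genotypes was large against counting error. Over the 3 Bloomsdale leaves, with 67439736 fragments in all, no fragment of Spo04579 was found. A floor of 3 fragments, here 0.200 FPKM, stood in for a group without fragments. Relative to that floor, the pooled level in PI175311 leaves was 44.5-fold for Spo04579, 13.3-fold for Spo00830 and 17.5-fold for Spo26769. In root it was 63.6-fold for Spo04579 and 28.7-fold for Spo00830. For Spo26769, with 91 fragments against 1, the root ratio was 95.5 with a counting interval of 16.7 to 3811. The ratios to the floor leave out the counting error of PI175311, so they are not lower limits. All of these ratios pool the libraries of a group and carry no replicate error.

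Against the spread between replicates the same differences did not hold up in the tests used here. The paper, with DESeq on counts, reports strong upregulation of the 3 genes in PI175311 leaves. That test was not repeated. None of the 3 reductase-like genes had at least 1 FPKM in 3 libraries of a tissue, so none entered the comparison of genotypes within leaf or root. With no filter, limma's adjusted p in leaf was 0.145 for Spo04579, 0.155 for Spo00830 and 0.161 for Spo26769. In root it was 0.166 for Spo04579, 0.179 for Spo00830 and 0.107 for Spo26769. Exact permutation tests on the FPKM values gave p = 0.40 for each of these genes in leaf and for Spo04579 and Spo00830 in root, because a PI175311 library was tied with Bloomsdale at 0. For Spo26769 in root, where the groups did not overlap, the exact permutation test gave p = 0.10 (0.40 adjusted over the 8 tests). That separation rests on 2 fragments in PI175311 root 3 against 1 in Bloomsdale root 3. Of the genes that passed the root filter, which Spo26769 did not, 8.77% lay wholly higher in PI175311 roots. The group means carried SDs as large as themselves, with 8.68 ± 8.25 FPKM (SD, n = 3) for Spo04579 in PI175311 leaves and 13.2 ± 13.1 in PI175311 roots.

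Which library was left out decided these tests. This setting, with no filter and each library left out in turn, was chosen after seeing the data. PI175311 leaf 2 and root 3 are the libraries in which these genes were at or near 0. Without them, only libraries with the genes on are set against values at or near 0. A pass there restates the on-off pattern and is no evidence for a genotype difference. Without PI175311 leaf 2 the leaf differences passed, with limma's adjusted p = 3.63e-04 for Spo04579, 0.00239 for Spo00830 and 0.00422 for Spo26769. Without any other leaf library they did not, with adjusted p-values of at least 0.218. Without PI175311 root 3 the root differences passed, with limma's adjusted p = 0.00465 for Spo04579, 0.0173 for Spo00830 and 0.0226 for Spo26769. Without another root library the lowest adjusted p was 0.160, that of Spo26769 without PI175311 root 2. Over all genes, 799 of 22473 were called higher without PI175311 leaf 2, and 530 of 23134 without PI175311 root 3.

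Between leaf and root of PI175311, no preference of the reductase-like genes was detected. In the fit over all 12 libraries, where all 3 passed the filter, the leaf-minus-root log2 difference was -0.39 for Spo04579 (95% interval -5.07 to 4.29, limma's adjusted p = 0.883). It was -0.68 for Spo00830 (95% interval -3.98 to 2.62, adjusted p = 0.706) and -0.87 for Spo26769 (95% interval -3.42 to 1.67, adjusted p = 0.522). The intervals span large changes in both directions and do not show that the tissues were alike. The sign turned for all 3 genes without PI175311 leaf 2, to 1.94 for Spo04579, 0.79 for Spo00830 and 0.40 for Spo26769, and also without PI175311 root 2, to 1.11, 0.66 and 0.09. It turned for Spo04579 without PI175311 root 1, to 0.64. Without PI175311 root 3 the differences were -2.91 for Spo04579, -2.48 for Spo00830 and -2.06 for Spo26769, and they did not pass (limma's adjusted p of 0.161, 0.0894 and 0.111). The interactions of genotype and tissue, -0.39 for Spo04579 and -0.68 for both Spo00830 and Spo26769, had limma's adjusted p-values from 0.884 to 0.966. Spo04579 and Spo00830 were at 0 in every Bloomsdale library, so their interactions repeat the leaf-minus-root differences in PI175311 and are no separate result. In Bloomsdale no tissue comparison was made for the reductase-like genes, since nearly all values were 0.

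Within the 4 libraries that expressed them, the genes kept nearly fixed proportions in 3. Spo04579 held 58.5% of the fragments of the 3 genes in PI175311 leaf 1 (exact Clopper-Pearson 95% interval 49.9% to 66.7%), 60.0% in leaf 3 and 59.5% in root 1. In root 2 its share was 47.1% (40.5% to 53.9%). The share of Spo00830 was 17.6%, 17.8% and 18.3% in leaf 1, leaf 3 and root 1, and 26.0% in root 2. The share of Spo26769 was 23.9%, 22.2%, 22.2% and 26.9% in the same order. Root 2, the library with the highest levels of all 3 genes, thus had the lowest share of Spo04579. Its interval overlapped those of the other libraries, which does not show that the shares were alike, and the difference was not tested. By FPKM, Spo04579 was 6.07 to 6.28 times as high as Spo00830 in 3 libraries and 3.37 times in root 2.

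**Figure D4:**
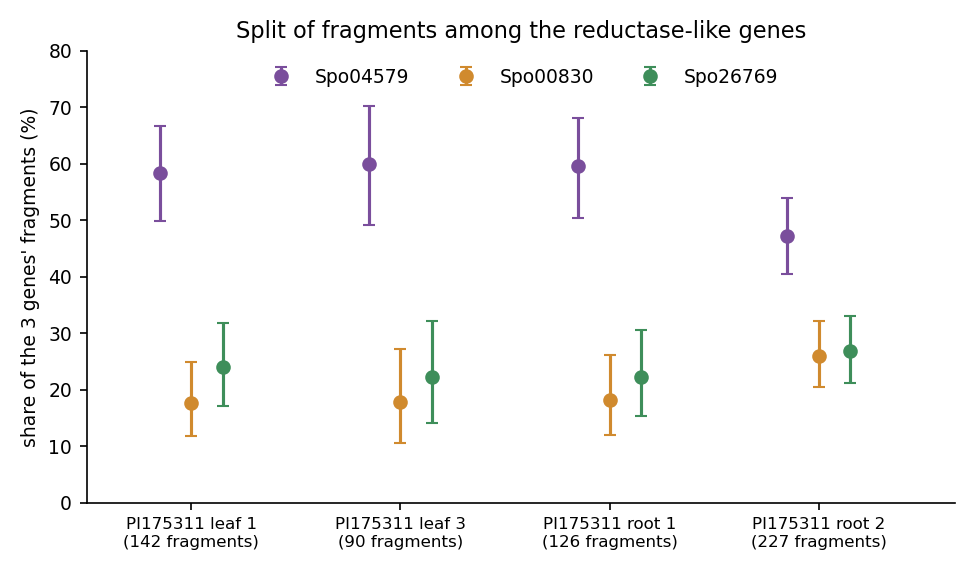
Share of each reductase-like gene, in percent, among the fragments of the 3 genes in the 4 PI175311 libraries that express them, with exact 95% intervals for counting error. The shares in leaf 1, leaf 3 and root 1 lie within 2 percentage points for each gene, and root 2 has 47.1% for Spo04579 against 58.5% to 60.0%.

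Across the 12 libraries, the reductase-like genes were more like each other than like nearly any other gene. Pearson's r of log2(FPKM + 0.1) was 0.992 between Spo04579 and Spo00830, 0.979 between Spo04579 and Spo26769, and 0.988 between Spo00830 and Spo26769. These are descriptions over 12 libraries that share genotype and tissue groups and many zeros. Among 19549 genes, Spo00830 was the gene second most like Spo04579, and Spo26769 the third. Spo12360 had an r of 0.143 to 0.244 with the 3 genes.

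Outside the 4 genes, Spo06114, for which the sources used here give no description, came closest to the mean profile of the reductase-like genes, with r = 0.991 (Spearman's rho 0.807). Spo06114 stood at 25.2, 0.157 and 13.6 FPKM in PI175311 leaves and at 16.2, 41.9 and 0 FPKM in PI175311 roots, and it was at 0 in all 6 Bloomsdale libraries. It was on in the same 4 libraries, and again highest in root 2. It was the only gene of the 19549 with an r of at least 0.95. The next was Spo15392 with r = 0.910, whose levels differed little, up to 24.5 FPKM in the 4 libraries against at most 17.8 in the others. In the whole table, 4 of 23588 genes above 0 had fragments in exactly the 4 libraries of Spo04579 and in no other. Spo04579 is among them by definition, and Spo00830 was another. These 2 were also the only ones with at least 1 FPKM in all 4. Separately, 26 genes reached 1 FPKM in each of the 6 PI175311 libraries with no fragment in Bloomsdale. The set of 4 libraries was picked from Spo04579, so the 2 counts do not compare how common on-off and steady genes are.

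The profile of Spo12360 was a common one, with 306 genes at an r of at least 0.95. The closest were Spo02033 (r = 0.994) and Spo25880 (r = 0.989), both root genes without a description in the sources used here. Spo02033 stood at 5003 to 10584 FPKM in the 6 roots. In leaf it stood at 12.9 to 31.7 FPKM in PI175311 and at 0 to 7.97 FPKM in Bloomsdale, highest in Bloomsdale leaf 2 as Spo12360 was. Its leaf values in PI175311 had another order than those of Spo12360, with leaf 2 the highest. Whether the likeness in leaf had a part in the genotype difference of Spo12360 was not tested.

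For context, 11 other genes of oxalate metabolism that the text of the paper names by ID and function were tested in the same fits. Most had been picked in the paper on these libraries, so their counts are not independent evidence of direction. In leaf, 9 of the 11 passed the filter, and 4 of these were called, each higher in PI175311. The median log2 difference of the 9 was 1.17, against -0.12 over all tested genes. The background in leaf was 4.04% of genes called higher and 6.08% called lower, and its 678 higher and 1020 lower genes became 954 and 850 with median-of-ratios scaling. The called genes act on ascorbate and on fatty acids. Ascorbate peroxidase Spo08328, which uses ascorbate to remove hydrogen peroxide, averaged 2861 FPKM with an SD of 1330 (n = 3) in PI175311 leaves and 264 ± 108 in Bloomsdale leaves. The ascorbate oxidases Spo12052 and Spo12053 had log2 differences of 2.87 and 2.74, and they missed the threshold when 1 limma fit took in all 12 libraries (adjusted p of 0.0544 and 0.0830). Spo21149, a multifunctional protein of fatty acid beta-oxidation, had a log2 difference of 1.24 (limma's adjusted p = 0.0231), and it was not called without PI175311 leaf 1 or 3 or without Bloomsdale leaf 1 or 3, with adjusted p-values of 0.0836, 0.0759, 0.0908 and 0.0593.

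The filter left 10 of the 11 in root, and the 1 called was higher in PI175311, where 2.93% of 18197 genes were called higher and 9.70% lower. The 534 higher and 1765 lower genes behind these shares became 679 and 764 with median-of-ratios scaling, which moved the median of all tested genes from -0.23 to 0.0078. The gene called higher was Spo08328, with a log2 difference of 2.50 (limma's adjusted p = 0.0456), which missed the threshold with no filter (0.0512), with median-of-ratios scaling (0.0515) and without limma's trend and robust options (0.0522). It also missed it with any 1 library left out except Bloomsdale root 3, with adjusted p-values from limma of 0.0798, 0.0661 and 0.0805 without PI175311 roots 1, 2 and 3 and of 0.127 and 0.128 without Bloomsdale roots 1 and 2. With the replicate number as a block, Spo19759, an oxalate decarboxylase-like gene, was called lower in addition (log2 difference -1.09, limma's adjusted p = 0.0208, against 0.0591 without the block).

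Isocitrate lyase Spo13898, which releases glyoxylate, the substrate named in the descriptions of the 4 genes, was low in leaf and did not pass the filter there. With no filter it was called higher in PI175311 leaves, with a log2 difference of 2.56 (limma's adjusted p = 0.0141), and in 1 fit over all 12 libraries it was called too (0.00664). It stood at 0.940, 0.300 and 0.487 FPKM in PI175311 leaves and at 0, 0 and 0.0197 FPKM in Bloomsdale leaves, the last from 1 fragment. All 3 PI175311 leaves were above Bloomsdale, leaf 2 included. In roots, Spo13898 stood at 4.82, 6.32 and 6.57 FPKM in PI175311 and at 5.91, 15.1 and 18.7 FPKM in Bloomsdale, where the groups overlapped. The log2 difference of Spo13898 in root was -1.01, toward Bloomsdale, and was not called (limma's adjusted p = 0.171). Its genotype difference was larger in leaf than in root by 3.56 on the log2 scale (interaction, limma's adjusted p = 0.0241), a call that was lost without PI175311 leaf 1 (0.0518), PI175311 leaf 3 (0.0523), Bloomsdale leaf 1 (0.0627) or Bloomsdale root 2 (0.0815). Like Spo12360, Spo13898 had its genotype difference toward PI175311 in leaf, and unlike the reductase-like genes it was present in all 6 PI175311 libraries.

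**Figure D5:**
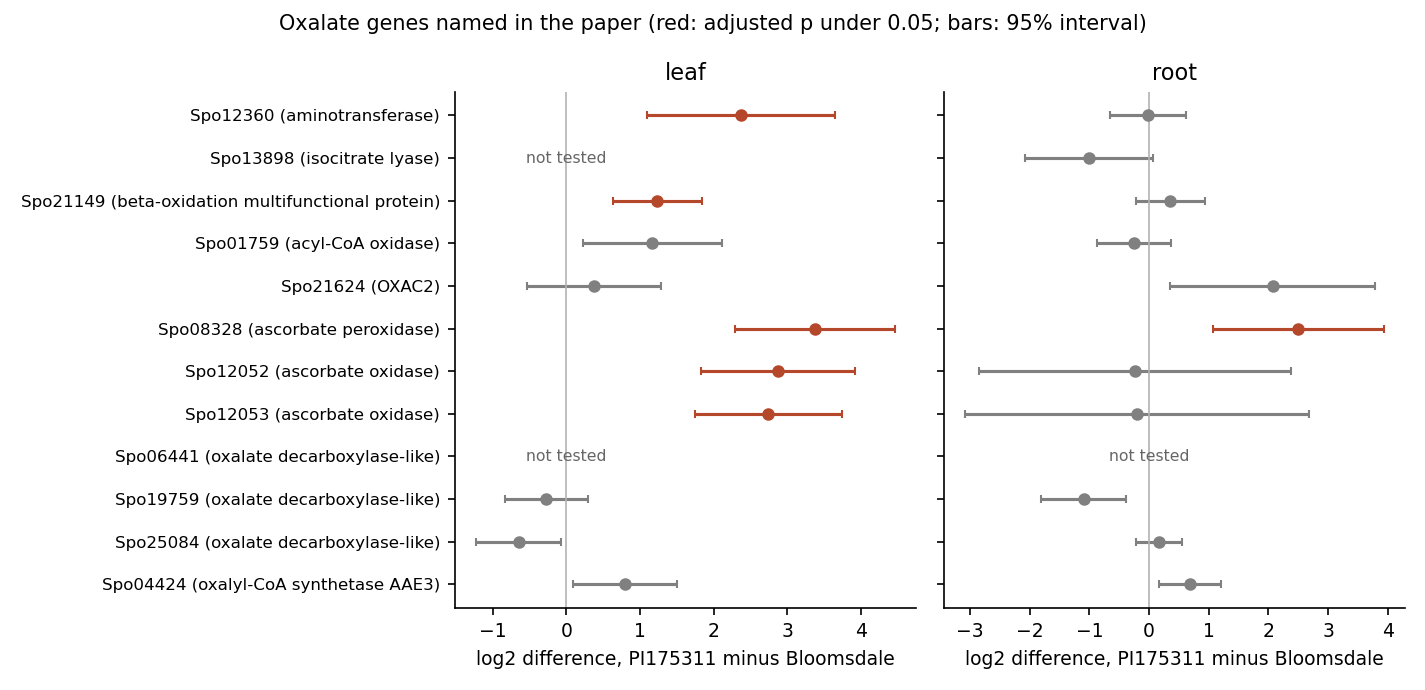
Log2 differences between PI175311 and Bloomsdale, on the log2(FPKM + 0.1) scale, for Spo12360 and the 11 other oxalate genes in leaf and root, with 95% intervals and with genes at an adjusted p under 0.05 in red. Spo12360, Spo21149, Spo08328, Spo12052 and Spo12053 are red in leaf and Spo08328 alone in root, and the 3 reductase-like genes are left out because they did not pass the filter.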

How the data were processed

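The deposited values were the authors' FPKM of 25495 genes in 12 libraries. According to the paper, TopHat (2.0.12) aligned filtered 150 bp paired-end reads to the SpinachBase genome, with a Bowtie (2.2.3) index, and HTSeq (0.6.1) counted them. By contrast, featureCounts, HISAT2 (2.1.0), fastp and DESeq2 stand in the processing notes of the submitters. Which of them made the values, and the genome build, are not given in the sources used here. None of the gene IDs was found in the RefSeq gene table used here, so no sequence or position is given.

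Whole fragments were solved from FPKM for 21552 of 21554 genes above 0 in at least 6 libraries, at a tolerance of 1e-04 fragments plus 2e-08 of their number, against 0 of 1000 genes with altered totals. For genes above 0 in fewer libraries, Spo04579 and Spo00830 among them, the smallest solution may understate fragments and lengths by a common factor. Counting intervals do not include replicate error.

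Genotypes were compared with limma 3.58.1 in R 4.3.3 (trend and robust options) on log2(FPKM + 0.1), over genes of which 3 or more libraries of the fit had at least 1 FPKM, with Benjamini-Hochberg adjustment over all tested genes. The test was checked on simulated data with normal noise on the log2 scale. That check did not model genes that are on in some libraries of a group and at 0 in others. Python 3.11.15 with scipy 1.17.1, numpy 2.4.6, pandas 2.3.3 and matplotlib 3.10.9 was used otherwise. Fits without a library kept the genes of the full fit. The alternatives were 1 or 0.01 FPKM added, no filter, a filter at a mean of 5 FPKM, scaling by median of ratios, limma without trend and robust options, the replicate number as a block, limma-voom on solved fragments, 1 fit over 12 libraries and each library left out. The deposited values are FPKM, and the count test of the paper was not run, also not on the solved fragments. Limma-voom kept the main filter, so it left out the reductase-like genes in the comparisons of genotypes within a tissue.

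Genes named are the 4 members, the 11 other oxalate genes that the paper's text names by ID with a function, and the 2 genes most like each profile by Pearson's r. The members and lists were chosen with earlier results of these data known. P-values measure the spread between 3 plants of a group.

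Deviations from group means of same-numbered PI175311 and Bloomsdale roots correlated at 0.247, 0.216 and 0.273 across genes. In leaf the correlations were 0.056, -0.203 and -0.198. Between leaf and root of the same number they were 0.044, -0.21 and -0.202 in PI175311, and -0.152, 0.283 and 0.342 in Bloomsdale. The deviations of a group sum to 0, so the 3 values of a comparison are not independent. They cannot decide whether libraries pair by number. The main fits were unpaired, and the replicate block was run as an alternative.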

Additional observations from a re-analysis of the deposited data

Results flagged for a closer look

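Isocitrate lyase Spo13898, the enzyme that releases glyoxylate from isocitrate, had a genotype difference that was larger in leaf than in root by 3.56 on the log2 scale. The test of that difference between tissues passed (limma's Benjamini-Hochberg adjusted p = 0.0241). The value combines a difference of 2.56 toward PI175311 in leaf with an uncalled difference of -1.01, toward Bloomsdale, in root. The leaf part of the value rests on 88 fragments over the PI175311 leaves and 1 over the Bloomsdale leaves, and its size follows the amount added before the logarithm, with 1.55 when 1 FPKM is added (adjusted p = 0.0934) and 6.21 when 0.01 FPKM is added (adjusted p = 0.0146). In limma-voom on the solved fragments it was also not called (adjusted p = 0.0845). Spo13898 was not called in this test without PI175311 leaf 1 or 3, without Bloomsdale leaf 1 or without Bloomsdale root 2, with limma's adjusted p-values of 0.0518, 0.0523, 0.0627 and 0.0815. None of the 4 glyoxylate genes passed the same test.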

How the results depend on the processing

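Spo12360 was called lower in leaf than in root under every alternative run, at -4.10 to -3.35 in PI175311 and -6.84 to -4.61 in Bloomsdale on the log2 scale. No called difference of the 4 glyoxylate genes changed sign. The genotype difference of Spo12360 in leaf lost its call with 0.01 FPKM added (2.74, limma's adjusted p = 0.0524) and without 4 of the 6 leaf libraries, and it ranged from 2.00 to 2.91 with a library left out. The interaction of Spo12360 ranged from 2.02 to 2.94 in the same way and passed without Bloomsdale leaf 2 alone. With no filter, the reductase-like genes passed in leaf without PI175311 leaf 2 (6.99 for Spo04579, 4.41 for Spo00830, 3.81 for Spo26769) and in root without PI175311 root 3 (7.57, 5.42 and 4.40). Those 2 libraries are the ones in which the genes were at or near 0, so these passes restate the on-off pattern. The filter at a mean of 5 FPKM left all 4 glyoxylate genes out in leaf, so the leaf call of Spo12360 was not tested there. In root that filter kept Spo04579 alone of the reductase-like genes. The libraries with all 3 on, 3 at 1 FPKM, were 0 at 5 FPKM. The causes of these moves were not tested.

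Over all genes, the 1698 called in leaf became 988 with a mean of at least 5 FPKM and 926 to 2180 with a library left out, with 926 without Bloomsdale leaf 1. The 2299 called in root became 1443 with median-of-ratios scaling and 314 to 2446 with a library left out, with 314 without Bloomsdale root 2 and 336 without Bloomsdale root 1. The 442 interactions became 942 with 1 FPKM added, 229 with 0.01 FPKM, 163 with a mean of at least 5 FPKM, 158 in limma-voom, and 106 to 840 with a library left out. Of the other oxalate genes, 4 were called higher in leaf, against 3 in 1 fit over 12 libraries, 5 with no filter and 3 to 5 with a library left out, and 1 was called higher in root, against 0 with no filter, 0 without trend and robust options, 2 in 1 fit over 12 libraries and 0 to 2 with a library left out. None was called lower in root, against 1 with the replicate block, 1 in 1 fit over 12 libraries and 0 to 1 with a library left out.

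The replicate block changed no call of Spo12360, nor the interactions or leaf-against-root results of the reductase-like genes. For their genotype differences it was run with no filter, a setting added after seeing the data, and none passed, with limma's adjusted p of 0.326 for Spo04579, 0.168 for Spo00830 and 0.135 for Spo26769 in leaf, and in root the lowest was 0.121, that of Spo26769. With the block, the adjusted p of Spo12360 from limma was 0.0158 in leaf, 0.942 in root and 0.105 for the interaction, and 2013 genes were called in leaf, 2668 in root and 303 for the interaction. Neither leaf nor root numbers were taken to pair the plants. At this depth, 1 fragment of Spo04579 is worth up to 0.244 FPKM.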
